A study of Mus musculus with 8 samples.

Results

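Classical cadherins and the catenins that bind them were followed across PyMT-1099 cells, a mouse breast cancer line, and a derived line in which Agps had been knocked out. The members were a list of 8 genes chosen by name: the cadherins Cdh1, Cdh2, Cdh3, Cdh5 and Cdh11 and the catenins Ctnna1, Ctnnb1 and Ctnnd1. They are 8 of 55450 identifiers in the count files, and all 8 were among the 14641 genes that passed the filter on low counts. Polyadenylated RNA was sequenced in 4 groups of 2 libraries: parental cells untreated, parental cells given TGF-β, Agps knockout cells untreated and Agps knockout cells given TGF-β. TGF-β was used at 2 ng/ml, and cells were exposed for 10 days. All 4 knockout libraries carry the same name stem and are read here as 1 knockout line. The loss of Agps therefore cannot be told apart from other differences of that line. The labels do not say that the libraries of a group were separate cultures, so p-values measure the spread between these libraries only, which may be technical.

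Classical cadherins are transmembrane proteins that bind a cadherin of the same kind on the neighbouring cell through calcium-dependent extracellular domains. Their cytoplasmic tails hold p120-catenin, which keeps the cadherin at the membrane, and β-catenin, which links it through α-catenin to actin; β-catenin outside the complex is the transcriptional effector of Wnt signalling. E-cadherin holds epithelial sheets together, and its replacement by N-cadherin during epithelial-mesenchymal transition is the textbook cadherin switch, for which TGF-β is a standard inducer in mammary epithelial cells. Agps encodes alkylglycerone phosphate synthase, which makes the ether bond of ether lipids in the peroxisome.

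Library totals ran from 17007268 to 21311831 counts, and log2 levels of the 2 libraries of a group had a Pearson r of 0.991 to 0.994 across genes. Levels are given in CPM, the count set relative to the library total after TMM scaling. Agps averaged 343.5 ± 19.4 CPM (SD, n = 2 here and below) without and 265.5 ± 0.98 CPM with TGF-β in the parental line, and 31.1 ± 2.52 and 39.8 ± 5.87 CPM in the knockout line. The 4 knockout libraries were thus below the 4 parental ones, as labelled. Of 5 epithelial marker genes, Krt8, Krt18 and Krt19 were abundant, while Epcam and Cldn7 had 0 counts in all 8 libraries.

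With TGF-β, parental cells had less Cdh1 and Ctnnb1 and more Cdh2, Cdh3, Cdh5 and Ctnnd1, and knockout cells showed calls in the same directions for the same 6 genes. Cdh11 and Ctnna1 did not pass the test in any comparison. So 4 members rose and 2 fell in parental cells, where 42.5% of all genes tested were called (21.3% higher, 21.2% lower) by edgeR's quasi-likelihood test at an adjusted p under 0.05. In knockout cells the members' counts were again 4 and 2, and 41.4% of all genes were called (20.9% higher, 20.6% lower). All counts of members in this paragraph include Cdh3. It passed the count filter only through the treated parental libraries, where it is highest, so it adds no support to these counts. The median log2 change of the 8 members was 0.25 in parental and 0.31 in knockout cells, against 0.01 and 0.00 over all genes tested. Knockout cells were called lower than parental cells in 3 members when untreated, where 13.7% of all genes were called (4.72% higher, 8.94% lower). With TGF-β they were called lower in 4 members, where 17.9% of all genes were called (6.82% higher, 11.1% lower). No member was called higher in the knockout line in either state. Cdh1, Cdh3 and Cdh5, called lower in both states, lie on chromosome 8. Of the tested genes of that chromosome, 46.7% were lower and 0.864% higher in untreated knockout cells. With TGF-β these shares were 47.9% and 0.988%. The 2 libraries of one group lay wholly above or below those of the other for 6 members with TGF-β in each line (72.1% of all genes in parental and 68.8% in knockout cells), for 5 between the untreated lines (50.7%) and for 7 between the treated lines (61.3%), so this separation alone is common at 2 libraries a group.

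**Figure D1:**
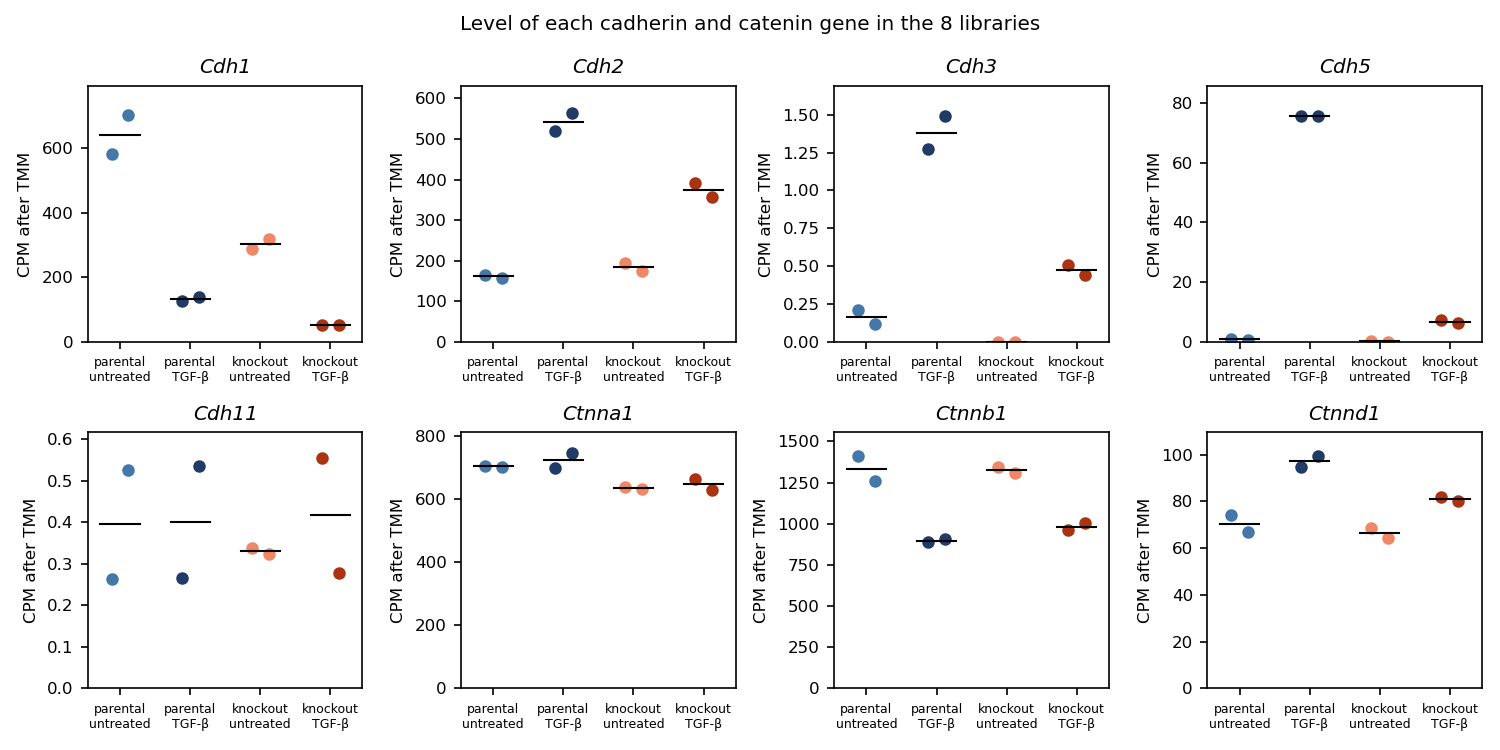
Level of each of the 8 genes in CPM after TMM scaling (vertical axis, starting at 0) in the 4 groups; points are the 2 libraries of a group and lines their mean. Cdh1 is lowest and Cdh2, Cdh3 and Cdh5 are high in the TGF-β groups, while Ctnna1 is between 631 and 746 CPM in all 8 libraries.

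Cdh1 encodes E-cadherin (ENSMUSG00000000303, chr8:106603351-106670246, plus strand, GRCm38, 4574 exonic bases). Its level was 582 and 702 CPM in the untreated parental libraries and 128 and 140 CPM with TGF-β. In the knockout line it was 287 and 317 CPM untreated and 52.3 and 52.4 CPM with TGF-β. The groups did not overlap in any of the 4 comparisons, and the untreated knockout libraries lay between both parental groups. TGF-β lowered Cdh1 4.80-fold in parental cells (log2 fold change -2.26, standard error 0.11, edgeR adjusted p = 2.39e-08) and 5.77-fold in knockout cells (-2.53, standard error 0.11, adjusted p = 1.18e-08). The difference between the 2 changes was -0.27 (95% interval -0.59 to 0.06, adjusted p = 0.478), which did not pass the test. Knockout cells had 2.13-fold less Cdh1 than parental cells when untreated (log2 -1.09, edgeR adjusted p = 5.92e-05) and 2.56-fold less with TGF-β (-1.35, adjusted p = 1.40e-05). In bulk RNA, fewer cells with the transcript and less transcript per cell cannot be told apart.

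Cdh2 encodes N-cadherin (ENSMUSG00000024304, chr18:16588877-16809246, minus strand), the cadherin of neural and many mesenchymal cells. It was at 165 and 158 CPM in untreated parental cells and at 519 and 563 CPM with TGF-β. The knockout libraries had 195 and 175 CPM untreated and 392 and 358 CPM with TGF-β. Every TGF-β library exceeded every untreated one, and the knockout libraries were above the parental ones when untreated and below them after treatment. The rise was 3.35-fold in parental cells (log2 1.74, standard error 0.09, edgeR adjusted p = 6.35e-08) and 2.03-fold in knockout cells (1.02, standard error 0.09, adjusted p = 3.82e-06).

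The TGF-β change of Cdh2 was smaller in knockout than in parental cells by 0.72 on the log2 scale (-0.72, 95% interval -1.01 to -0.44, edgeR adjusted p = 0.0156). Cdh2 was the only member called in this test of the difference, for which 2.4% of all genes were called (1.25% higher, 1.15% lower). The call was lost without parental TGF-β replicate 1 (-0.78, adjusted p = 0.0596), parental TGF-β replicate 2 (-0.66, 0.0967) or knockout TGF-β replicate 2 (-0.65, 0.117); over its 14 alternatives the adjusted p ran from 2.67e-05 to 0.117. Between the lines, Cdh2 did not pass the test in untreated cells (log2 0.19, adjusted p = 0.213). With TGF-β it was 1.44-fold lower in knockout cells (-0.53, edgeR adjusted p = 0.00229).

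Cdh5 encodes VE-cadherin, the cadherin of endothelial junctions (ENSMUSG00000031871, chr8:104101625-104144511, plus strand). Untreated parental cells had 0.843 and 0.761 CPM, and parental cells with TGF-β had 75.6 CPM in both libraries. In the knockout line the untreated libraries had 0.241 and 0 CPM, and the TGF-β libraries 7.23 and 6.15 CPM. Cdh5 was thus near the limit of detection without TGF-β and present in all 4 TGF-β libraries, with the treated knockout libraries far below the treated parental ones. The TGF-β rise was 93.2-fold in parental cells (log2 6.54, standard error 0.25, edgeR adjusted p = 5.32e-09) and 53.7-fold in knockout cells (5.75, standard error 0.40, adjusted p = 4.86e-07). The knockout value rests on 5 counts in the untreated group, all in replicate 1: without that library the untreated group held 0 counts, the fitted log2 value was 9.97, which then depends on the prior count, and the call held. The difference of the 2 changes was -0.80 (95% interval -2.78 to 1.19, adjusted p = 0.783), so it was not resolved at these counts.

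With TGF-β, Cdh5 was 11.3-fold lower in knockout than in parental cells (log2 -3.49, standard error 0.19, edgeR adjusted p = 8.52e-07), the largest line difference among the members with more than 3 counts in both groups. Untreated, it was 6.49-fold lower (standard error 0.63 on the log2 scale, edgeR adjusted p = 0.0150), on 29 counts in the parental and 5 in the knockout libraries. That call was lost without parental untreated replicate 1 (adjusted p = 0.0543) and when only the 2 compared groups were fitted (0.107), within a range of 4.95e-05 to 0.107 over 15 alternatives. Without knockout untreated replicate 2 the log2 difference was -1.71, and without replicate 1 the fitted value was -6.93 against 0 counts, which depends on the prior count.

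Other endothelial genes were near 0. Of 12 endothelial markers listed, 2 passed the count filter, Pecam1 and Vwf, and neither was called with TGF-β in either line. Between the treated lines, where Cdh5 was lower in knockout cells, Vwf was also called 4.80-fold lower, with 10 and 9 counts in the parental and 1 and 3 in the knockout libraries (log2 -2.26, edgeR adjusted p = 0.0477). That call held in 8 of 15 alternatives (adjusted p 0.0194 to 0.236): it was lost with DESeq2 (0.207), without parental TGF-β replicate 1 (0.168) or 2 (0.156), knockout untreated replicate 1 (0.0504) or 2 (0.0507), and knockout TGF-β replicate 1 (0.236) or 2 (0.0901). The summed level of the 12 was 1.17 to 1.74 CPM in untreated and 1.75 to 1.79 CPM in TGF-β-treated parental cells, and 1.58 to 1.59 and 0.942 to 1.37 CPM in the knockout line. Cldn5, Emcn and Sox17 had 0 counts in all 4 groups. In parental cells 8 of the 12 were at 0 counts untreated and 4 with TGF-β, where Erg, Kdr, Plvap and Tek had counts. In knockout cells 6 were at 0 counts in each state.

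Of 5 fibroblast markers listed, 2 passed the count filter, Col1a1 and Pdgfra. The summed level of the 5 went from 1.35 to 1.37 CPM up to 127 to 138 CPM in parental cells with TGF-β. In knockout cells it went from 0.531 to 0.696 up to 94.9 to 102 CPM. Most of these counts were from Col1a1, a collagen gene (4696 counts in treated parental and 3603 in treated knockout cells, against 35 and 119 for Pdgfra), while Dcn had 0 counts in both TGF-β groups. The summed epithelial level went from 5100 to 5813 down to 2997 to 3188 CPM in parental cells and from 3863 to 4219 down to 3182 to 3395 CPM in knockout cells. In parental cells Krt8, Krt18 and Krt19 all fell (log2 -0.49, -0.43 and -2.29). In knockout cells Krt19 alone of these 3 fell (-2.97), while Krt8 (0.16) and Krt18 (0.12) were not called. The TGF-β changes of Krt8 differed by 0.65 between the lines (edgeR adjusted p = 0.0464), a call lost in 7 of 14 alternatives (6.29e-06 to 0.226): with upper quartile scaling (0.0601) and without parental untreated replicate 1 (0.101), parental TGF-β replicate 1 (0.226) or 2 (0.135), knockout untreated replicate 2 (0.0945), or knockout TGF-β replicate 1 (0.113) or 2 (0.198). The 7 leukocyte markers summed to 17.2 to 18.4 CPM in treated knockout cells and to 28.1 to 32.9 CPM in the other groups, with Adgre1 and Cd3e at 0 counts throughout. The 2 leukocyte markers tested moved in opposite directions: Csf1r was at -0.47 in parental cells and fell by 2.14 in knockout cells, while Cd68 rose by 2.20 and 2.21. The parental call of Csf1r was lost without parental TGF-β replicate 1 (adjusted p = 0.0627, lowest 0.00319). The part of these shifts in the cadherin changes was not tested.

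Cdh3 encodes P-cadherin, found in basal epithelial cells (ENSMUSG00000061048, chr8:106510891-106557297, plus strand). It was scarce throughout: 4 and 2 counts in untreated parental cells, 24 and 25 with TGF-β, 0 and 0 in untreated knockout cells, and 10 and 8 with TGF-β. Treated and untreated libraries did not overlap in either line. Cdh3 passed the count filter only through the treated parental libraries, where it is highest. It therefore had to differ with TGF-β in parental cells, and it adds no support to the count of members called. The TGF-β rise was 8.0-fold in parental cells (log2 3.0, 95% interval 1.95 to 4.05, edgeR adjusted p = 0.000487). In knockout cells it was at least 6.70-fold, set against the limit of 3 counts over a group without counts (edgeR adjusted p = 0.000843).

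Between the lines, untreated Cdh3 was called lower in knockout cells (6 against 0 counts, at least 2.34-fold lower, edgeR adjusted p = 0.0429). This call was lost in each of the 8 fits that left out 1 library, with adjusted p from 0.0539 to 0.166, and when only the 2 groups were fitted (0.160); over all alternatives that gave a p it ran from 0.0303 to 0.166. With TGF-β, Cdh3 was 2.87-fold lower in knockout cells (log2 -1.52, 95% interval -2.36 to -0.68, edgeR adjusted p = 0.0195). That call was lost with DESeq2 (adjusted p = 0.239) and without parental TGF-β replicate 1 (0.0769) or 2 (0.120) or knockout TGF-β replicate 1 (0.0833) or 2 (0.115), within 0.00543 to 0.239 over 15 alternatives. Neither line difference of Cdh3 is therefore firm at these counts.

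Cdh11 encodes cadherin-11, a cadherin of osteoblasts and other mesenchymal cells (ENSMUSG00000031673, chr8:102632095-102785642, minus strand). It had 5 and 9 counts in untreated parental cells, 5 and 9 with TGF-β, 7 and 7 in untreated knockout cells, and 11 and 5 with TGF-β. The groups overlapped. The log2 change with TGF-β was 0.02 in parental cells (95% interval -1.26 to 1.30) and 0.34 in knockout cells (-0.90 to 1.59). The parental interval includes changes of 2-fold in either direction, so such a change was not detectable at this depth.

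**Figure D2:**
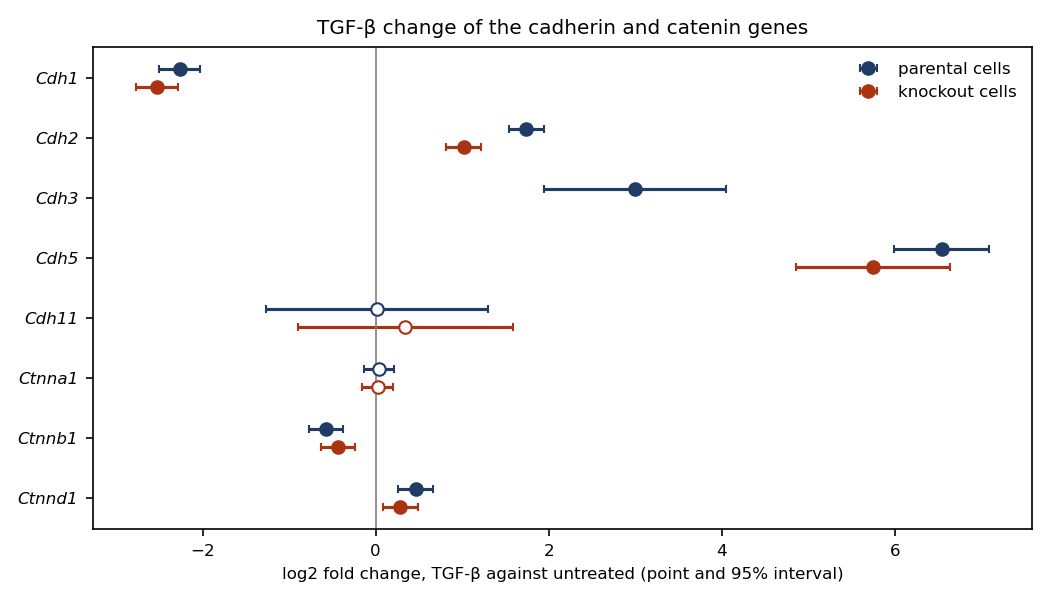
Log2 fold change of each gene with TGF-β against untreated (horizontal axis) in parental (blue) and knockout (red) cells, with 95% intervals from the edgeR fit; filled points passed an adjusted p of 0.05 and open points did not. Cdh3 has no knockout point because its untreated knockout group had 0 counts; the intervals of Cdh2 in the 2 lines are apart, at 1.74 and 1.02.

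Among the catenins, Ctnna1 encodes α-catenin, the actin link (ENSMUSG00000037815, chr18:35118859-35254779, plus strand). It was at 707 and 702 CPM in untreated and 701 and 746 CPM in TGF-β-treated parental cells, and at 639 and 633 and then 664 and 631 CPM in knockout cells. The log2 change with TGF-β was 0.04 in parental cells (95% interval -0.14 to 0.22, edgeR adjusted p = 0.742) and 0.02 in knockout cells (-0.15 to 0.20, adjusted p = 0.842). The knockout libraries had lower values than the parental ones in both states, at log2 differences of -0.15 and -0.16, without passing the test (edgeR adjusted p = 0.283 and 0.209).

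Ctnnb1 encodes β-catenin (ENSMUSG00000006932, chr9:120929216-120960507, plus strand). It was at 1413 and 1257 CPM in untreated parental cells, 892 and 904 CPM with TGF-β, 1347 and 1309 CPM in untreated knockout cells, and 960 and 1002 CPM with TGF-β. All TGF-β libraries were below all untreated libraries. It fell by 0.57 on the log2 scale in parental cells (standard error 0.09, edgeR adjusted p = 0.000304) and by 0.44 in knockout cells (standard error 0.09, adjusted p = 0.00192). Neither line comparison was called (untreated -0.01, with TGF-β 0.13). Ulk4 overlaps 14.6% of its exonic length on the opposite strand with 63 to 191 counts a library, and whether the counting used strand is not given in the sources used here.

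Ctnnd1 encodes p120-catenin (ENSMUSG00000034101, chr2:84600071-84650765, minus strand). Its libraries had 74.2 and 66.8 CPM in untreated parental cells, 94.7 and 99.6 CPM with TGF-β, 68.6 and 64.4 CPM in untreated knockout cells, and 81.9 and 80.0 CPM with TGF-β. The treated parental libraries were highest and the treated knockout libraries next, and the untreated libraries of both lines overlapped. It rose in parental cells (log2 0.46, standard error 0.09, edgeR adjusted p = 0.00178) and was called higher in knockout cells at 0.28 (adjusted p = 0.0271). The knockout call was lost with no count filter (0.0595), with only the 2 groups fitted (0.0581), and without parental TGF-β replicate 1 (0.0524) or 2 (0.0521), knockout untreated replicate 2 (0.138), or knockout TGF-β replicate 1 (0.105) or 2 (0.0679), within 0.0169 to 0.138 over 15 alternatives. Another annotated gene, Gm28635, covers 61.2% of its exonic length on the same strand and had 0 counts in all libraries. Reads in that overlap may not have been counted, so the level of Ctnnd1 beside other genes is uncertain, and its FPKM over the remaining 2.84 kb was 24.9 ± 1.84, 34.3 ± 1.23, 23.4 ± 1.06 and 28.5 ± 0.465 in the order above (n = 2 each).

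Set per kilobase of exon (FPKM, from CPM after TMM), the 5 member cadherins could be compared with each other. Cdh1 made up 87.3% ± 1.83 (SD, n = 2) of their sum in untreated parental cells and 25.5% ± 0.346 with TGF-β. In knockout cells its share went from 74.1% ± 2.91 to 19.2% ± 1.06. Cdh2 took the opposite course, from 12.6% ± 1.81 to 58.5% ± 0.417 in parental and from 25.8% ± 2.86 to 77.9% ± 0.863 in knockout cells. Cdh5 reached 15.7% ± 0.799 of the sum in treated parental cells but 2.66% ± 0.159 in treated knockout cells. There were 7.02 ± 1.15 Cdh1 transcripts per Cdh2 transcript in untreated parental cells and 2.90 ± 0.433 in untreated knockout cells, and 0.436 ± 0.0028 and 0.247 ± 0.0164 with TGF-β. Cdh1 thus led in all 4 untreated libraries and Cdh2 in all 4 treated ones.

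The sum of the 3 catenins stood at 2.37 ± 0.402 times that of the 5 cadherins in untreated and 2.61 ± 0.07 in treated parental cells. In the knockout line it was 4.09 ± 0.205 untreated and 5.05 ± 0.305 with TGF-β, above every parental library. The cadherin sum itself was 160.6 ± 17.8, 114.7 ± 5.85, 89.0 ± 2.95 and 59.7 ± 3.23 FPKM in that order. Once the other cadherins were added to the denominator, the ratios were 1.04 ± 0.127, 1.09 ± 0.0014, 1.58 ± 0.134 and 1.48 ± 0.0071. In untreated parental cells the other cadherins added 203.1 FPKM, of which Cdh16 held 96.4 and Cdh17 45.9. Whether each of them binds these catenins was not examined, so this is not a ratio per catenin-binding cadherin. These sums were chosen after the values were seen and are given as a description.

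Of 18 other cadherin genes listed, 5 passed the count filter, and each was called with TGF-β in both lines: Cdh6, Cdh15 and Cdh24 higher, Cdh16 and Cdh17 lower. Cdh15 had 0 counts in both untreated groups and passed the filter only through treated parental cells. It therefore had to differ with TGF-β in parental cells, and it adds no support to this count. Over all genes tested, 42.5% were called in parental and 41.4% in knockout cells. Ordered per length over all 23 cadherin genes, untreated parental cells had Cdh1 first (140.3 FPKM), then Cdh16 (96.4), Cdh6 (60.0), Cdh17 (45.9) and Cdh2 (20.03), each above the next in both libraries. With TGF-β the parental order was Cdh6 (78.1), Cdh2 (67.1), Cdh16 (49.3), Cdh17 (29.8), Cdh1 (29.2) and Cdh5 (17.98), and the libraries of Cdh17 and Cdh1 overlapped. Untreated knockout cells had Cdh1 (66.02), Cdh17 (56.0), Cdh6 (49.6), Cdh16 (35.3) and Cdh2 (22.9), with Cdh17 and Cdh6 overlapping. Treated knockout cells had Cdh6 (85.4), Cdh2 (46.5), Cdh17 (44.5), Cdh16 (11.6), Cdh1 (11.4) and Cdh5 (1.59), where Cdh2 and Cdh17, and Cdh16 and Cdh1, overlapped. By group means Cdh1 was therefore rank 1 of the family in both untreated groups and rank 5 in both treated groups, and Cdh6, not Cdh2, was rank 1 after TGF-β.

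**Figure D3:**
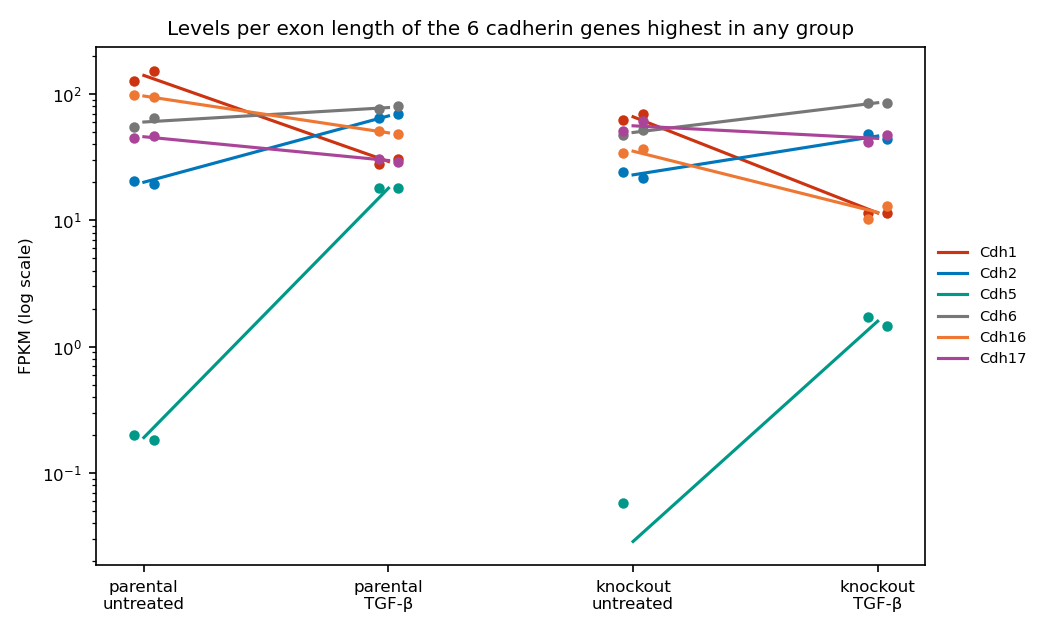
Level per kilobase of exon (FPKM, log axis) of the 6 cadherin genes with the highest mean in any group; points are libraries, and lines join the group means of untreated and treated cells of a line. Cdh1 crosses Cdh2 and Cdh6 between untreated and treated cells of both lines; Cdh5 replicate 2 of untreated knockout cells is at 0 and has no point.

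Cdh6 encodes K-cadherin, a type II cadherin. With TGF-β its log2 change was 0.38 in parental cells (edgeR adjusted p = 0.00937) and 0.78 in knockout cells (adjusted p = 6.48e-05); the parental call was lost without parental untreated replicate 1 or parental TGF-β replicate 2 (adjusted p up to 0.0811, range over alternatives 0.000402 to 0.0811). Cdh16, or Ksp-cadherin, fell by 0.97 in parental and 1.61 in knockout cells. Cdh16 was also lower in the knockout line, by 1.45 untreated and 2.09 with TGF-β (edgeR adjusted p = 8.64e-06 and 8.52e-07), and it lies on chromosome 8 between Cdh11 and Cdh1. Cdh17 was higher in treated knockout than in treated parental cells (log2 0.58, edgeR adjusted p = 0.00297, called in 15 of 15 alternatives) and was not called between the untreated lines (0.29, adjusted p = 0.0981). None of Cdh6, Cdh15 and Cdh24 was called between the lines. Cdh17, or LI-cadherin, fell by 0.62 in parental cells. In knockout cells its change was -0.33, a call lost without knockout untreated replicate 2 or knockout TGF-β replicate 1 (adjusted p up to 0.224, from 0.00451). Cdh24 rose by 1.13 and 1.06, and Cdh15, M-cadherin, went from 0 to 21 counts in parental cells (at least 7.08-fold higher) and from 0 to 9 in knockout cells (at least 3.35-fold higher).

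The 4 member cadherins of chromosome 8 lie in the order Cdh11, Cdh5, Cdh3 and Cdh1 within 4.04 Mb (chr8:102632095-106670246), and many genes of this chromosome were lower in the knockout line. Of 67 other genes tested in that stretch, 44 were lower and 1 was higher in untreated knockout cells, with a median log2 difference of -0.82, and 46 were lower and 0 higher with TGF-β (median -0.71). The median over the 810 tested genes of chromosome 8 was -0.46 untreated and -0.47 with TGF-β. On chromosomes 18, 9 and 2, which hold Cdh2, Ctnna1, Ctnnb1 and Ctnnd1, the medians lay between 0.03 and 0.06. With TGF-β the same 67 genes had a median change of 0.10 in parental cells (19 higher, 7 lower) and 0.16 in knockout cells (14 higher, 7 lower).

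The line difference of Cdh1 minus the median of its neighbours was -0.26 on the log2 scale untreated and -0.65 with TGF-β. Of the 67 neighbours, 15 had a lower value than Cdh1 untreated and 12 with TGF-β. Most of these were scarce. Of those with an average log2 CPM over 3, Fhod1, Cdh16, Slc7a6 and Pdp2 were lower untreated and only Cdh16 with TGF-β. For Cdh5 the distance from the median was -1.87 and -2.79, and 1 and 2 neighbours had lower values. These were the scarce genes Gm3830 untreated and Rrad and Gm33023 with TGF-β. Cdh3 with TGF-β was at -0.81 from the median, and Cdh11 at 0.60 and 0.80 with intervals of the fit that include 0. How much of the line difference of each cadherin goes with the whole stretch cannot be told apart from a difference of the gene itself. The stretch was examined after the values were seen.

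**Figure D4:**
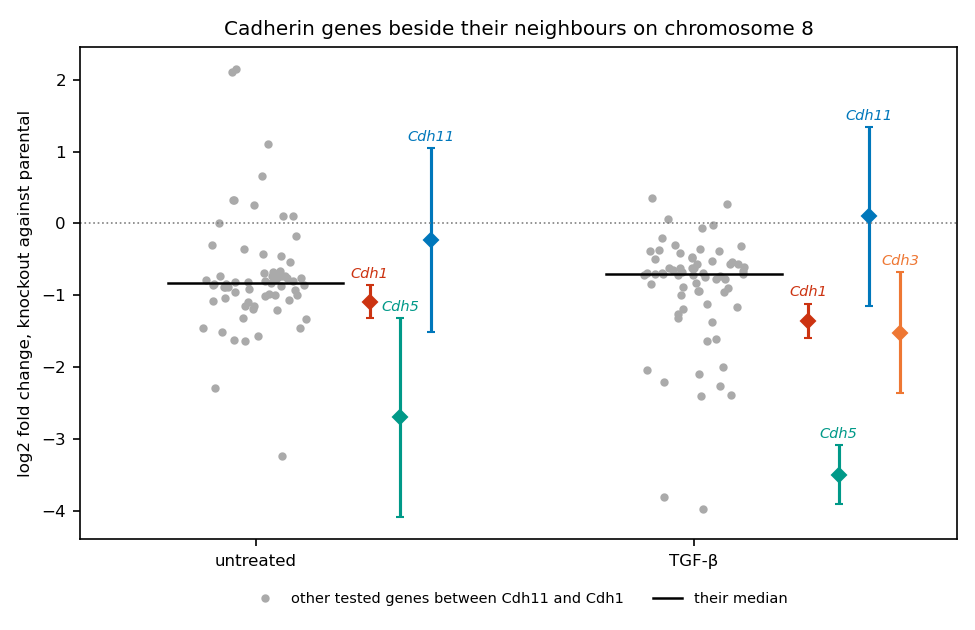
Log2 fold change of knockout against parental cells (vertical axis) in untreated and TGF-β-treated cells. Grey points are the 67 other tested genes between Cdh11 and Cdh1 (horizontal scatter carries no value), black lines their medians (-0.82 and -0.71), and diamonds the member cadherins with 95% intervals; Cdh3 is shown only with TGF-β because its untreated knockout group had 0 counts.

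Among 11 other catenin-family genes, 8 were tested. With TGF-β 5 were called higher and 1 lower in parental cells, and 4 and 1 in knockout cells (median log2 changes 0.37 and 0.40). Beside this list and those below, the shares over all genes tested were 21.3% higher and 21.2% lower in parental cells. In knockout cells they were 20.9% and 20.6%. Jup encodes plakoglobin, which can take the place of β-catenin on the cadherin tail; its log2 change was 0.31 in parental cells and 0.57 in knockout cells (edgeR adjusted p = 0.00809 and 0.000118). The parental call of Jup was lost without parental untreated replicate 2 or parental TGF-β replicate 2 (adjusted p up to 0.0642, from 0.00407). Pkp2, a desmosomal plakophilin, rose by 0.95 and 0.79, while Pkp4 (0.10 and -0.11) and the β-catenin inhibitor Ctnnbip1 (0.29 and 0.22) were not called. Arvcf, a p120-related catenin, was at 0.43 in parental cells and at 0.19 in knockout cells, where it was not called. Its parental call was lost without parental untreated replicate 1 or either parental TGF-β library.

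Ctnnal1, which encodes α-catulin, a relative of α-catenin, took a course unlike Ctnna1. It was at 84.5 and 72.4 CPM in untreated parental cells, 25.97 and 27.4 CPM with TGF-β, 45.0 and 39.9 CPM in untreated knockout cells, and 26.4 and 25.6 CPM with TGF-β. Untreated parental libraries were highest, and the treated libraries of both lines overlapped. Ctnnal1 fell by 1.56 on the log2 scale in parental and by 0.71 in knockout cells, and the difference of 0.85 was called (edgeR adjusted p = 0.0199). That call was lost when any of the 4 TGF-β libraries was left out (adjusted p 0.0788 to 0.121, with 0.000205 the lowest over all alternatives). Untreated knockout cells had less Ctnnal1 than parental cells (log2 -0.89, edgeR adjusted p = 0.000321).

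All 20 junction linker and nectin genes were tested. With TGF-β 8 rose and 6 fell in parental cells, and 8 rose and 7 fell in knockout cells (medians 0.18 and -0.04). Vcl, which encodes vinculin, the protein that reinforces α-catenin under tension, rose by 1.01 and 0.87, and Actn1, an α-actinin, by 2.13 and 1.84. Tjp1, which encodes ZO-1, fell by 0.58 and 0.59, whereas Afdn (afadin, -0.01 and -0.18) and Actn4 (0.15 and -0.09) were not called. Nectins are adhesion molecules that join cadherins at the junction through afadin. Nectin1 rose by 1.39 and 0.88, Nectin2 by 0.81 and 1.04, and Nectin4 by 4.54 and 3.40. Nectin3 rose by 0.54 in knockout cells and was at 0.32 in parental cells, a call lost with DESeq2, with no count filter and without each of the 4 parental libraries (adjusted p up to 0.147, from 0.0173).

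Between the lines, Nectin1 was higher in knockout cells untreated (log2 0.94, edgeR adjusted p = 0.00161) and with TGF-β (0.43, 0.0434, held in 8 of 15 alternatives). Nectin3 was also higher untreated (0.43, edgeR adjusted p = 0.0181, held in 11 of 15) and with TGF-β (0.65, 0.00136). Nectin4 was called higher untreated only (1.65, edgeR adjusted p = 0.0291, with 8 counts in parental cells). Nectin2 was called higher with TGF-β only (0.37, 0.0380). For these 2 the alternatives are not given here. Untreated Vcl was at -0.36 (edgeR adjusted p = 0.0397, held in 6 of 15). Vcl with TGF-β was at -0.51 in knockout against parental cells (edgeR adjusted p = 0.00612), a call lost without parental TGF-β replicate 1 or knockout TGF-β replicate 1 (adjusted p up to 0.0678, from 3.06e-06). Of the 20 genes, 3 were higher and 5 lower in untreated knockout cells, and 4 higher and 8 lower with TGF-β. Over all genes tested, 4.72% were higher and 8.94% lower untreated, and 6.82% higher and 11.1% lower with TGF-β.

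Of 13 genes of cadherin shedding and turnover, all tested, 5 rose and 4 fell in parental cells, and 3 rose and 1 fell in knockout cells (medians 0.18 and 0.13). Adam10, the protease that sheds E-cadherin, rose by 0.61 in knockout cells and was at 0.28 in parental cells, a call lost without parental untreated replicate 2 or parental TGF-β replicate 2 (adjusted p up to 0.135, from 0.00721). Arf6, a small GTPase of E-cadherin endocytosis, fell by 0.61 and 0.57. Cbll1, the ubiquitin ligase Hakai, was at 0.30 and 0.21, and Rab11a, of the recycling endosome, at -0.40 and -0.25, with neither knockout value called. Their parental calls were each lost when parental untreated replicate 2 or either parental TGF-β library was left out (that of Cbll1 also with DESeq2 and with no count filter; adjusted p up to 0.265 for Cbll1, from 0.0236, and up to 0.122 for Rab11a, from 0.00145).

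Of 13 kinases and phosphatases of the complex, 11 were tested: 4 rose and 3 fell in parental and 4 rose and 4 fell in knockout cells (medians -0.15 and -0.04). Ptpn11, which encodes SHP2, rose by 0.72 and 0.70 and the receptor phosphatase Ptprk by 0.53 and 0.61; Ptprf fell by 0.44 in knockout cells and was not called in parental cells (-0.20). In the β-catenin destruction complex, 3 of 8 genes were called higher in parental and 1 in knockout cells, and 0 were lower in either (medians 0.17 and 0.03). Csnk1a1 (0.20 and 0.12) was not called in either line. Gsk3b (0.26 and -0.09) and Apc (0.30 and 0.07) were called higher in parental cells, and both calls were lost without parental untreated replicate 2 or either parental TGF-β library. That of Gsk3b was also lost with no count filter, and that of Apc without parental untreated replicate 1 (adjusted p up to 0.201 for Gsk3b, from 0.0124, and up to 0.204 for Apc, from 0.0179).

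Of 12 transcription factors that bind the Cdh1 promoter, 7 were tested. In parental cells 5 were called higher and 1 lower, and in knockout cells 6 were called higher and 0 lower. These counts include Grhl2, which passed the filter only through the treated groups, where it is high, so it had to differ and adds no support to them. Zeb1 rose by 1.41 and 1.16, Zeb2 by 4.33 and 3.56, and Snai1 by 2.92 and 4.60; all 3 encode repressors of Cdh1. Zeb2 stood at 5.22 and 6.09 CPM in untreated and 112 and 115 CPM in treated parental cells, and at 9.85 and 8.86 and then 128 and 92.8 CPM in knockout cells. Snai2 and Twist1, further repressors, had 0 counts in all 8 libraries. Tcf3 was at 0.37 and 0.39; its call was lost without parental TGF-β replicate 1 in parental cells (adjusted p = 0.0980, lowest 0.00548) and without knockout TGF-β replicate 2 in knockout cells (0.0550, lowest 0.00340).

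Activators of Cdh1 were also on the list. Grhl2 was scarce, with 4 counts in untreated and 34 in treated parental cells and 7 and 25 in knockout cells. It was called higher in both lines, a call lost in knockout cells with DESeq2 and without knockout untreated replicate 2 or either knockout TGF-β library (adjusted p up to 0.139, from 0.00447). Klf4 was at -0.52 and -0.42 with TGF-β, and the knockout value was not called (edgeR adjusted p = 0.0958). Its parental call was lost with upper quartile scaling and without parental untreated replicate 1 or any of the 4 TGF-β libraries (adjusted p up to 0.306, from 1.55e-05), and its knockout value was called in 5 of 15 alternatives. For Zeb1, Zeb2, Snai1, Grhl2 and Klf4 the test of a line-dependent response to TGF-β gave no call (edgeR adjusted p of 0.128 to 0.932). Between the untreated lines, Zeb2 was called higher in knockout cells (log2 0.73, edgeR adjusted p = 0.0219, called in 12 of 15 alternatives). Between the treated lines, Snai1 was called higher in knockout cells (0.83, edgeR adjusted p = 0.0438, alternatives not given here). In each state the other 6 of the 7 factors tested were not called.

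The genes most like each cadherin over the 8 libraries, by Pearson's r of log2 CPM among genes with an average log2 CPM of at least 3, are given as a description; they share libraries, depth and groups with it. Cdh1 was most like Inpp4b (r = 0.997, n = 8), a lipid phosphatase gene also on chromosome 8, Klf5 (0.997) and Ms4a2 (0.997). Cdh2 was most like Cnn2 (0.996), which encodes a calponin, Megf6 (0.995) and Enah (0.994), an actin regulator. Cdh5 was nearest to Map3k14 (0.991), Med15 (0.989) and Csf1 (0.988), and Cdh3 to Myadm (0.996), M6pr (0.996) and Rhoc (0.993). Both also rest on few counts: untreated knockout cells had 5 counts of Cdh5 and 0 of Cdh3, where log2 CPM depends on the prior count. For Cdh11 the highest values were lower, 0.918 for Zkscan1, 0.886 for Tbc1d23 and 0.869 for Zfp933, and rest on 5 to 11 counts a library.

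The comparisons share libraries: each line comparison uses a group of each TGF-β comparison, and the difference of the changes uses all 4 groups. Their values are therefore set side by side above and not counted as independent of each other.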

How the data were processed

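Polyadenylated RNA from 8 libraries (4 groups of 2) was analysed. The deposited files hold counts per gene; per the submitters' processing notes, STAR 2.7.1a, featureCounts 1.6.2, DESeq2 1.26.0 and GRCm38 (mm10) were used. The release of the annotation and the strand setting: not given in the sources used here. Gene positions and exon lengths came from GENCODE M21, which held all 55450 identifiers. The authors' normalised table was not used.

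The raw counts were fitted with edgeR 4.0.16 (R 4.3.3): TMM scaling, filterByExpr with a minimum count of 10, glmQLFit and glmQLFTest with 1 mean per group over all 8 libraries (4 residual degrees of freedom), and Benjamini-Hochberg adjustment over 14641 genes. Calls have an adjusted p under 0.05. FPKM is CPM after TMM per kilobase of merged exon. Folds were not given for groups with 3 or fewer counts. A group without counts was set to 3 counts over the group to give a lower bound. Intervals cover 95% and come from the fit.

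Alternatives were RLE and upper quartile scaling, scaling without chromosomes 3, 8, 15 and X, DESeq2 1.42.0, no count filter, only the compared groups, a replicate block and leaving out each library. The fit was tested on simulated counts. The rate of false calls varied between the simulated draws and in the highest was well above the nominal rate. The bounds for accepting that test were loosened after its first outcome was seen.

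The members, lists and tests were chosen with earlier results of these data known. Named genes were the members, Agps, every tested cadherin, a fixed set of partners and regulators, the 3 most abundant tested genes of each list, and the 3 genes most like each cadherin. Beside the members, genes are given for the TGF-β comparisons; those also given for the line comparisons were picked after their values were seen. No sequence is shown.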

Additional observations from a re-analysis of the deposited data

Results flagged for a closer look

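The TGF-β change of Cdh2, the N-cadherin gene, differed between the lines by the test of the difference itself: the log2 change in knockout minus that in parental cells was -0.72 (edgeR adjusted p = 0.0156). All 4 TGF-β libraries were above all 4 untreated ones, at 519 and 563 CPM in parental and 392 and 358 CPM in knockout cells, against 158 to 195 CPM untreated. The call was lost without parental TGF-β replicate 1 (adjusted p = 0.0596), parental TGF-β replicate 2 (0.0967) or knockout TGF-β replicate 2 (0.117). Chromosome 18, which holds Cdh2, had a median difference of -0.01 over 407 tested genes.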

How the results depend on the processing

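For the 37 member comparisons with more than 3 counts in each group, 507 of 546 values under the alternatives kept direction and side of the threshold, 17 lost a call, 3 gained one and 19 changed sign; for the other named genes these were 1476 of 1588, 89, 13 and 10. Of the 3 Cdh3 comparisons with a group at 0 counts, not among these, the TGF-β call in knockout cells held in 15 of 15 alternatives, the call between the untreated lines held in 5 of 14, and the difference of the changes was called in 0 of 13. Cdh15, and Pdgfra in knockout cells, are left out of the counts for the same reason, 3 or fewer counts in a group. No value that changed sign had a call in either fit. Cdh1, Cdh2, Cdh3, Cdh5, Ctnnb1 and Ctnnd1 in parental cells and the first 5 of these in knockout cells kept their TGF-β calls in all 15 alternatives. For Cdh3 this adds no support, because it passed the count filter only through treated parental cells, where it is highest. No scaling shifted the median of all genes by more than 0.042.

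With only the compared groups fitted, untreated knockout cells had 342 genes higher and 766 lower, against 691 and 1309, and 1 member lower, against 3. For the difference of the changes, 183 genes were higher and 169 lower; DESeq2 gave 279 higher, and no count filter gave 469 and 386. Over the fits that left out 1 library, members lower in untreated knockout cells numbered 1 to 2 and members lower in the difference 0 to 1. Genes called there ran from 411 to 615 higher in untreated knockout cells, from 364 to 1138 higher and 805 to 1773 lower with TGF-β (998 and 1620 reported), and from 53 to 223 higher and 48 to 183 lower for the difference. These fits hold fewer samples.

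Same-numbered libraries deviated together with r of 0.02 to 0.31 over 6 pairs of groups, and 4 of these were under 0.1, so the replicate numbers were not taken as pairing. With the replicate block, the difference had 349 genes higher and 330 lower; Ctnnd1 was called lower in knockout cells with TGF-β (adjusted p = 0.0455), as it was without chromosomes 3, 8, 15 and X in the scaling (0.0499) or with only the groups (0.0316), and no member lost a call.

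Uncalled log2 values that changed sign were as follows, as ranges over the fits without 1 library. In parental cells with TGF-β: Cdh11 -0.55 to 0.57 (-0.0016 with no filter), Ctnna1 -0.0081 to 0.083, Afdn -0.051 to 0.032 (0.033 with upper quartile scaling) and Pkp4 -0.0095 to 0.22. In knockout cells with TGF-β: Cdh11 -0.25 to 0.75, Ctnna1 -0.013 to 0.074, Gsk3b -0.18 to 0.0033, Apc -0.11 to 0.24 and Pecam1 -0.83 to 0.88. Knockout against parental, untreated: Cdh11 -0.66 to 0.32 and Ctnnb1 -0.089 to 0.079 (0.028 with upper quartile scaling). With TGF-β: Cdh11 -0.50 to 0.66, Ctnnal1 -0.077 to 0.00037 and Zeb2 -0.29 to 0.18. For the difference: Cdh5 -1.79 to 3.43 (3.43 without knockout untreated replicate 1), Cdh11 -0.27 to 0.89 and Ctnna1 -0.058 to 0.036 (0.0046 with no filter). Their causes were not tested.

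Depth limits Cdh3, Cdh11 and untreated Cdh5, which had 29 or fewer counts in a group.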
